A study of Drosophila melanogaster with 6 samples.

Results

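Promoter-proximal RNA polymerase II (Pol II) was compared between S2 cells depleted of BEAF by RNAi and S2 cells given a control double-stranded RNA (dsRNA) against bacterial LacZ. Every gene that the deposited results list for this comparison at the promoter was included, which gave 2137 transcripts of 5528 listed in the series, 47 called down, 57 called up and 2033 listed as unchanged. The series is a PRO-seq study of 6 libraries, 2 for each of BEAF RNAi, polybromo (Pbro) RNAi and LacZ RNAi. S2 is an embryonic Drosophila line with blood cell features. The BEAF dsRNA had a length of 668 bp, that for Pbro one of 493 bp and the LacZ control one of 835 bp. Each flask received 150 µg of it at the outset and again 2.5 days on, and nuclei were taken after a further 2.5 days. Knockdown in such a culture is transient, so the cells keep what BEAF protein outlasts the treatment. By the study's Western blot, most of the BEAF protein was lost.

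BEAF, the boundary element-associated factor, is a DNA-binding insulator protein of Drosophila whose sites lie mostly near the start sites of housekeeping genes, often between genes that diverge from one another. Pol II at many fly genes initiates, transcribes a short stretch and pauses before it is released into the gene body by the P-TEFb kinase. PRO-seq labels the 3′ end of nascent RNA in isolated nuclei, so the signal just downstream of a start site reads paused and early elongating Pol II, and that in the gene body reads Pol II released from the pause.

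All fold changes are log2 values of BEAF RNAi over LacZ RNAi as the authors computed and deposited them, with adjusted p-values from their DESeq2 test of 2 libraries against 2. Promoters with an adjusted p under 0.05 are those called down or up, and unchanged promoters are those with one above 0.9. Promoters between these limits are not listed, so the listed ones are a selected set. No levels, reads per library or standard errors were used, and the precision of each fold change is known only through its adjusted p. Nuclei were measured in bulk, so fewer nuclei with Pol II at a promoter and less Pol II in each cannot be told apart. BEAF-32 itself was not analysed here.

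After BEAF RNAi, promoter-proximal Pol II was called in both directions and at a small part of the listed genes. The 47 promoters called down were 2.2% of those listed and the 57 called up were 2.67%. With intermediate promoters left out, such shares of listed genes are larger than shares of all genes counted. They also depend on how many genes each comparison lists. Among the down promoters the log2 fold change ran from -2.84 to -0.60, with a median of -0.84, which is 56.0% of the LacZ RNAi level. Among the up promoters it ran from 0.56 to 2.09, with a median of 0.78, or 1.72 times the LacZ RNAi level. A change of at least 2-fold was seen at 16 down and 10 up promoters, and one of at least 4-fold at 5 down promoters and 1 up promoter. The 2033 unchanged promoters lay between -0.18 and 0.18, with a median of -0.0020. Their extremes were CG11882 at -0.18, asrij at -0.18 and CG15111 at -0.17 on the low side, and garz and Det at 0.18 and 0.17 and Hou at 0.17 on the high side. The gaps between these ranges arise because the sheets leave out intermediate adjusted p-values.

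**Figure D1:**
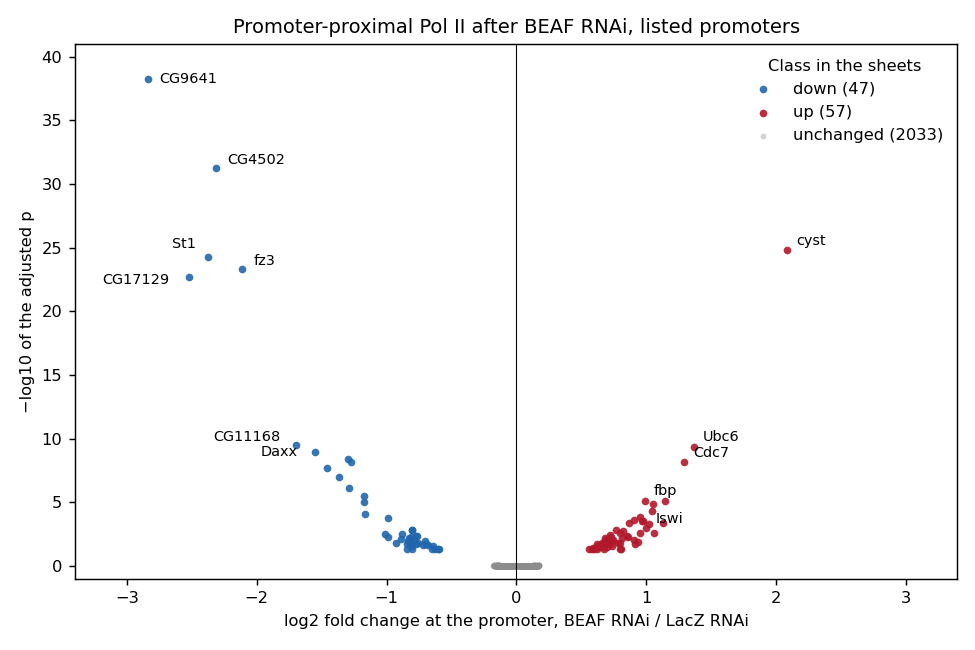
Log2 fold change of promoter-proximal Pol II, BEAF RNAi over LacZ RNAi, on the x axis against −log10 of the deposited adjusted p on the y axis, 1 point for each of the 2137 listed promoters, coloured by class. A group of 5 down promoters and cyst among the up promoters stand apart at the top, and the unchanged promoters lie along the bottom between -0.18 and 0.18.

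The promoters of CG9641, CG4502, St1, fz3 and CG17129 lost the most Pol II, and these 5 were the ones that fell at least 4-fold. CG9641 (2L, 2974854 to 2976859, minus strand, dm3) had 0.140 times the LacZ RNAi level, a log2 change of -2.84 (adjusted p = 5.62e-39). CG17129 (3L, 677879 to 680295, minus strand) had 17.4% of it (log2 -2.52, adjusted p = 2.05e-23). St1, which encodes a sulfotransferase, had 19.3% (log2 -2.37, adjusted p = 5.56e-25). CG4502 (2L, 7194908 to 7204254, minus strand) had 20.1% (log2 -2.31, adjusted p = 5.21e-32). The promoter of fz3 (X, 664061 to 671680, plus strand), a Frizzled-family Wnt receptor gene, had 23.2% (log2 -2.11, adjusted p = 4.57e-24). The next in size was CG11168, at 30.9% of the control (log2 -1.70, adjusted p = 3.02e-10).

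The down promoters that followed belonged to genes of varied function. Daxx, whose mammalian counterpart is a chaperone of histone H3.3, fell by 1.55 on the log2 scale (adjusted p = 1.11e-09). CG9123 was at -1.46, CG11158 at -1.37, CG17292 at -1.30 and CG8399 at -1.27, all with adjusted p-values of 9.46e-08 or lower. Coq7, an enzyme gene of ubiquinone synthesis, fell by 1.29 (adjusted p = 7.12e-07). PGRP-LA, a member of the peptidoglycan recognition family of innate immunity, fell by 1.17 (adjusted p = 3.01e-06). A subunit gene of the general transcription factor TFIIH, mrn, likewise fell by 1.17 (adjusted p = 1.00e-05). CG8841 at -1.16 and mei-217 at -1.01 complete the 16 that fell at least 2-fold. mei-217, a gene of meiotic recombination, shares a dicistronic transcript with mei-218, and the listed span covers that transcript (X, 17030018 to 17036964).

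The other 31 down promoters lost between 1.5-fold and 2-fold. RNA processing was represented by Prp4 (CG6322), a protein gene of the spliceosomal tri-snRNP (log2 -0.88, adjusted p = 0.00318), and by rump, an hnRNP gene (log2 -0.63, adjusted p = 0.0432). In protein synthesis, folding and turnover, eIF2Bbeta, a subunit of the exchange factor for eIF2, was at -0.65, Dph4, of diphthamide synthesis on elongation factor 2, at -0.79 and CaBP1, an endoplasmic reticulum protein related to disulfide isomerases, at -0.82. The ubiquitin ligase gene STUB1, whose product works with Hsp70, was at -0.93 and a further ubiquitin ligase gene, Kpc1, at -0.81. Of the cytoskeleton, the maternal gamma-tubulin gene gammaTub37C was at -0.84 and DCTN1-p150, the large dynactin subunit also called Glued, at -0.80. The Arf GTPase-activating protein gene Asap fell by 0.81, the flippase subunit gene Cdc50 by 0.70 and the E-cadherin gene shg by 0.60, the smallest change called down.

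Several metabolic enzymes and transporters stood among these 31. Pgls, of the pentose phosphate pathway, was at -0.84, Gmppb, which makes GDP-mannose, at -0.68 and ND-SGDH, a subunit of respiratory complex I, at -0.80. The nucleoside transporter gene Ent1 was at -0.83 and the zinc transporter gene foi at -0.64. Also called down were Nepl21 (log2 -0.99), a neprilysin-like peptidase gene, rasp (-0.72), the acyltransferase gene that acts on Hedgehog and Spitz, and Sry-beta (-0.81), a zinc finger protein gene. Grip, Jwa, Pgm2a and snama were at -0.80, -0.81, -0.89 and -0.60. Of the 47 down genes, 16 carry only a CG number as their name.

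Among the up promoters cyst stood alone. cyst (2L, 19502334 to 19508710, minus strand), a gene of epithelial junctions, rose to 4.25 times the LacZ RNAi level (log2 2.09, adjusted p = 1.65e-25). Ubc6 (3R, 777039 to 778393, minus strand), a ubiquitin-conjugating enzyme gene, rose 2.58-fold (adjusted p = 4.16e-10). Cdc7 (X, 6548660 to 6553742, plus strand), the kinase gene of replication origin firing, rose 2.45-fold (adjusted p = 6.79e-09). CG32037 was at 1.15, Nipsnap at 1.13, CG42566 and the transporter gene MFS16 at 1.06 and 1.05, CG7564 at 1.05 and fw at 1.03. Iswi, the ATPase gene of the NURF, ACF and CHRAC remodeling complexes, was the last to reach 2-fold, at a log2 change of 1.003 (adjusted p = 0.00106). fbp, which encodes the gluconeogenic fructose bisphosphatase, came next at 1.98-fold (adjusted p = 7.39e-06). CG3328 and CG10764 followed, at log2 changes of 0.98 and 0.97 (adjusted p = 0.000314 for both).

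The smaller increases included genes of signaling and of the cell surface. PlexB, the semaphorin receptor gene on chromosome 4, rose by 0.96 on the log2 scale (adjusted p = 0.000134) and the G protein subunit gene Galphaf by 0.91 (adjusted p = 0.000246). The Ryk-family receptor gene dnt rose by 0.62 and amon, a prohormone convertase gene, by 0.63. Hemese, He, a hemocyte surface protein gene, rose by 0.94 and Ppn, the papilin gene of the extracellular matrix, by 0.72. FucT6, a fucosyltransferase gene, was at 0.71.

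Regulators of gene expression and of the cell cycle were also called up. Psc, of Polycomb repressive complex PRC1, was at 0.66 and Asx, of the Polycomb deubiquitinase PR-DUB, at 0.80 (adjusted p = 0.0166 and 0.0432). The BTB zinc finger gene ab was at 0.69, the hnRNP A gene Hrb87F at 0.70, E2f2, the repressive E2F, at 0.70, Cdc27, of the anaphase-promoting complex, at 0.85 and orb, a germline RNA-binding protein gene of the CPEB family, at 0.80. Thor, the 4E-BP inhibitor of cap-dependent translation, rose by 0.77 (adjusted p = 0.00141). The cell death activator gene hid had the smallest change called up, 0.56, and was the only called promoter under 1.5-fold.

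Metabolic genes that rose beside fbp were Pgm1 at 0.82, for phosphoglucomutase, whd at 0.64, for mitochondrial carnitine palmitoyltransferase, Cbs at 0.68, for cystathionine beta-synthase, CAHbeta at 0.72, for a carbonic anhydrase, Dhdds at 0.68, of dolichol synthesis, and Cyp6a21 at 0.91, a cytochrome P450 gene. In transport, Gga, a clathrin adaptor gene of the Golgi, was at 0.86 and CLIP-190, which binds microtubule plus ends, at 0.87. Of the 57 up genes, 19 carry only a CG number.

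**Figure D2:**
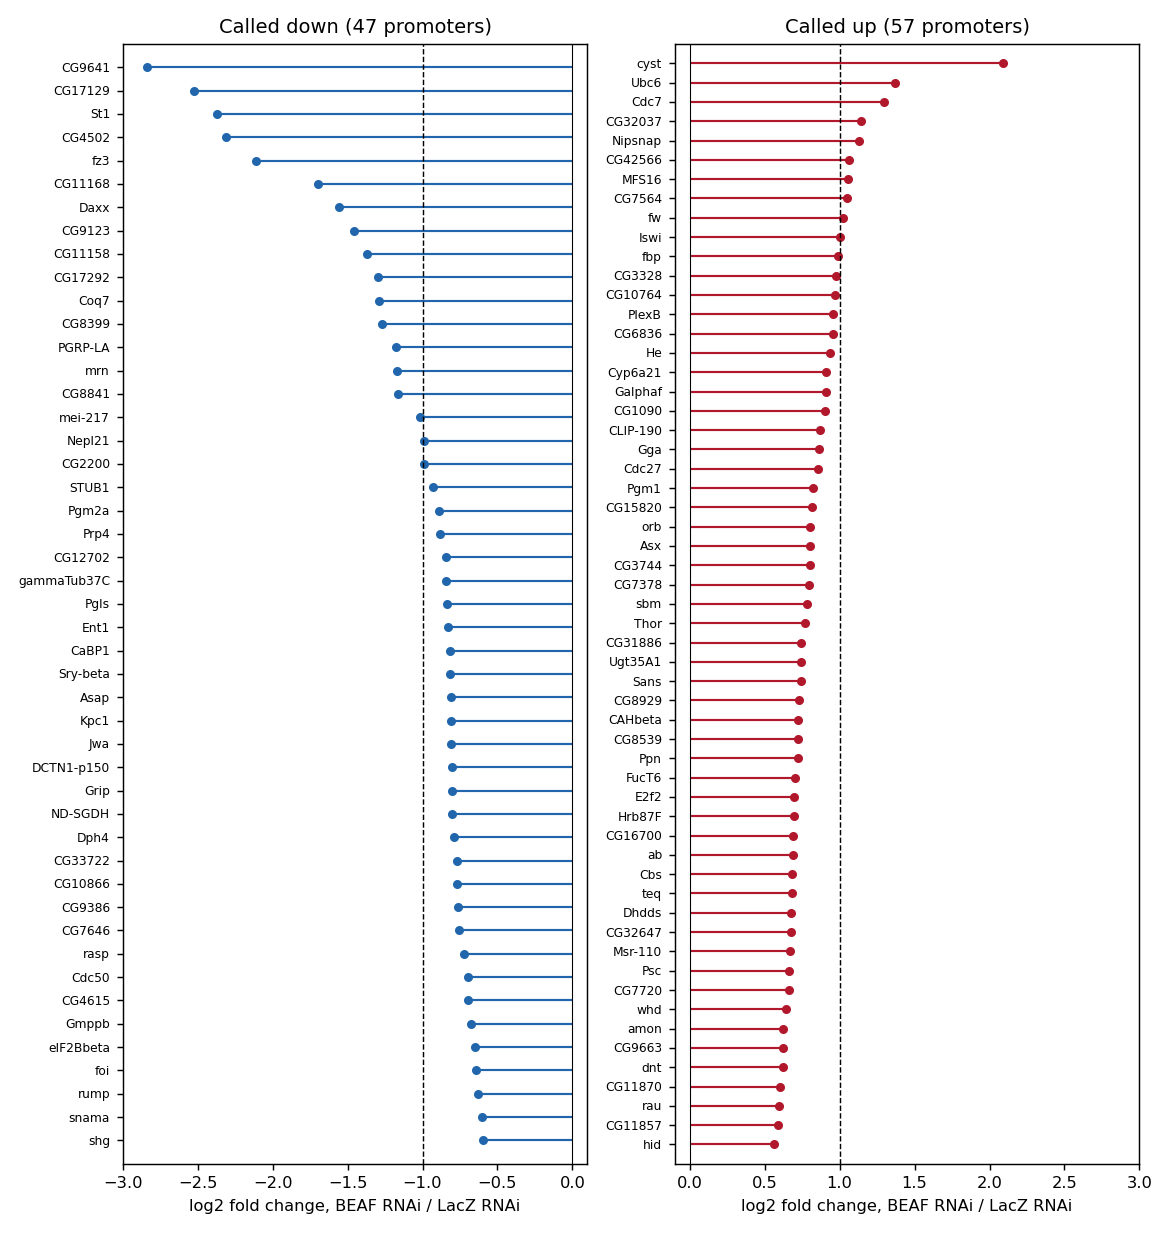
Log2 fold change of every called promoter, BEAF RNAi over LacZ RNAi, with 47 down promoters in the left panel and 57 up promoters in the right, ordered by size. Dashed lines mark 2-fold, which 16 down and 10 up promoters reached, and cyst is the single up promoter past 4-fold.

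The calls nearest to the threshold of the adjusted p were not always the smallest changes. DCTN1-p150 and orb both had an adjusted p of 0.0499, at -0.80 and 0.80. Just inside on the down side were snama (adjusted p = 0.0485), CG12702 (0.0441), eIF2Bbeta (0.0432) and shg (0.0432). On the up side these were hid (0.0494), CG11857 (0.0483), CG11870 (0.0468) and dnt (0.0432). The unchanged gene with the lowest adjusted p was CG15111, at 0.901.

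The called promoters were set against functional groups. Of 35 gene lists of pathways, complexes and cell types, 32 had at least 1 listed promoter, and 13 of these 32 held no call. Together the lists held 333 listed genes, 28 of them called (8.41%), against 4.87% of all 2137 listed promoters called in either direction, and the other 76 called genes were in no list. The lists were drawn up with results of these data in view, so nothing is read from these shares, and none was tested. The median over all listed promoters was -0.0017. As 95.1% of them were listed for an adjusted p above 0.9, a median near 0 follows from the listing. Nothing is read from it on a shift common to many promoters.

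Genes of the transcription machinery were looked at by complex. Pol II and the general transcription factors had 10 of 41 genes listed. Of these 10, mrn was called down and the other 9 lay between -0.12 and 0.04. Only 7 of 25 pausing and elongation factor genes were listed, and all 7 were unchanged. Nelf-A, a subunit of the pausing factor NELF, was at -0.12, Spt5 and spt4, which form DSIF, at 0.07 and -0.05, CycT, of the P-TEFb kinase, at -0.15, Hexim and Larp7, which hold P-TEFb inactive, at 0.13 and 0.02, and Atu, of the Paf1 complex, at 0.12. The 6 listed Mediator genes, of 29, lay between -0.11 and 0.09. Genes of these complexes that were not listed have no value here. Counts this small cannot be set apart from the 4.87% called over all listed promoters.

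Among the 13 listed of 30 genes of chromatin remodeling complexes, Iswi was the one called, beside 4.87% called over all listed promoters. Its NURF partners were unchanged, with E(bx) at -0.02, Nurf-38 at -0.02 and Caf1-55 at 0.08, and so was its ACF partner Acf, at -0.00044. Of the Brahma complexes, brm was at -0.15, mor at 0.04, Bap60 at -0.0093, Bap170 at 0.05 and e(y)3 at 0.14. The remaining listed ATPase genes and partners, kis, Etl1 and pont, were at -0.05, 0.08 and 0.0025.

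The list of insulator and architectural protein genes also held genes of the NSL complex. Only 7 of its 25 genes were listed, and the others have no value here. All 7 were unchanged at their own promoters, as were 95.1% of all listed promoters. mod(mdg4) was at -0.10, dwg, also known as Zw5, at -0.13, ZIPIC at 0.03, M1BP at -0.06, Elba2 at -0.04, and mof and wds, of the NSL complex, at -0.10 and -0.03.

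Several lists had members moving in opposite directions. Over all listed promoters 2.2% were down and 2.67% up, and nothing is read from so few calls in a list. Of 17 listed spliceosome and mRNA processing genes, Prp4 fell and Hrb87F rose. Of 13 tubulin and motor genes, gammaTub37C and DCTN1-p150 fell and CLIP-190 rose. Of 17 ubiquitin enzymes Kpc1 fell and Ubc6 rose, of 16 translation factors eIF2Bbeta fell and the inhibitor gene Thor rose, and of 13 adhesion and matrix genes shg fell while cyst and Ppn rose. Of 6 listed germline genes gammaTub37C fell and orb rose, and of 11 solute transporter genes foi fell and MFS16 rose.

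In other lists the calls went one way, mostly because a single gene was called. Nothing is read from these either, beside 2.2% down and 2.67% up over all listed promoters. In glycolysis and gluconeogenesis 2 of 8 listed genes, Pgm1 and fbp, rose. Replication contributed Cdc7 (1 of 14, up), the cell cycle list E2f2 (1 of 13, up), cell death hid (1 of 3, up), oxidative phosphorylation ND-SGDH (1 of 13, down), DNA repair mei-217 (1 of 10, down), Wnt and Hedgehog signaling fz3 (1 of 11, down), innate immunity PGRP-LA (1 of 7, down) and the chaperones STUB1 (1 of 6, down).

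Several lists of widely used cell functions held no call. The 25 listed of 81 cytoplasmic ribosomal protein genes lay between -0.13 and 0.14. The 24 listed of 55 genes of vesicle and membrane traffic lay between -0.12 and 0.18. The 11 listed tRNA synthetase genes (of 18) lay between -0.12 and 0.05 and the 8 listed proteasome genes (of 32) between -0.11 and 0.15. The 9 listed genes of lipid and sterol metabolism (of 29) lay between -0.09 and 0.11. Of signaling and development, the 10 receptor tyrosine kinase, 8 Notch, 6 TGF beta and JAK/STAT and 6 developmental transcription factor genes listed were all unchanged. Each of these lists also had genes that were not listed, which have no value here. With 2.2% of all listed promoters down and 2.67% up, nothing is read from the absence of calls in lists of this size.

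Markers of cell types were checked by listing alone, since the sheets give no levels. Of 18 hemocyte markers 7 were listed, He and Ppn up and the other 5 unchanged between -0.07 and 0.13. Over all listed promoters 2.67% were up, and nothing is read from 2 calls. None of 11 neuron, 12 muscle or 9 fat body markers was listed at the promoter, and 3 of 7 glia markers were listed and unchanged. A marker that was not listed has no value here, so whether it was expressed is not known from this.

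Pol II in the gene body was called at fewer of these genes. In the body comparison, of the same libraries, 64 of 4810 listed genes were down (1.33%) and 20 were up (0.416%). Of the 47 down promoters, 35 were listed for the body, where 9 were down (25.7%) and 26 unchanged. Of the 57 up promoters, 31 were listed, where 1 was up (3.23%) and 30 unchanged. The 1751 unchanged promoters listed for the body included 11 down (0.628%) and 7 up (0.40%) there. Promoter and body reads come from the same nuclei, so these shares were not tested.

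Promoters with large losses had gene body values of very different size. CG17129, CG4502 and CG9641 fell in the body as well, by 1.91, 1.73 and 1.69 on the log2 scale (adjusted p = 1.19e-29, 1.31e-27 and 3.65e-25). St1, with a promoter loss of similar size, was at 0.21 in the body, and CG11168 and Daxx were at -0.19 and -0.08. fz3 was not listed for the body. CG8399 and PGRP-LA fell about as much in the body, at -1.25 and -1.09, as at the promoter. gammaTub37C, Kpc1 and Gmppb were at -0.69, -0.68 and -0.58 in the body, and mei-217 at -0.42.

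Of the up promoters, 26 had no listed body value. CG1090 was the one called in both, at 0.90 at the promoter and 0.97 in the body (adjusted p = 0.0239). cyst was at 0.13, Ubc6 at 0.0043, Cdc7 at -0.03 and Iswi at 0.0073 in the body, all listed as unchanged there. Since a body is listed as unchanged by its adjusted p alone, values near 0 follow from the listing. Over the 30 unchanged bodies the range was -0.23 to 0.34, with 22 above 0 and 8 below. Over the 26 unchanged bodies of down promoters it was -0.31 to 0.21, with 6 above 0 and 20 below. The medians of these groups were 0.07 and -0.08, and that of the 1733 genes unchanged at promoter and body was 0.02. In the reverse direction, of the 64 genes down in the body, 9 were down, 11 unchanged and 44 not listed at the promoter, and of the 20 up, 1 was up, 7 unchanged and 12 not listed.

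**Figure D3:**
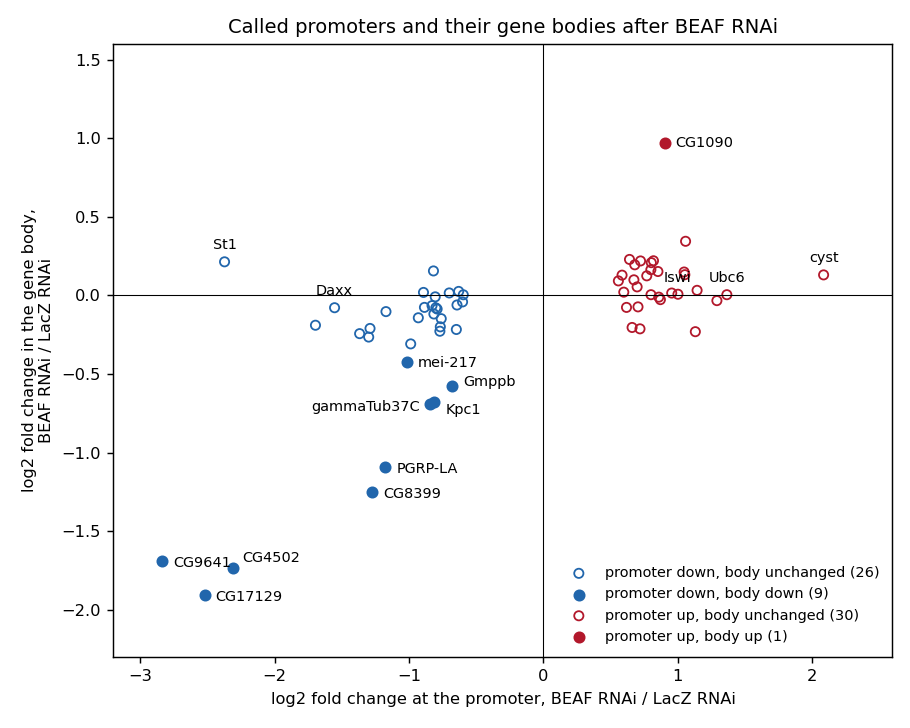
Log2 fold change, BEAF RNAi over LacZ RNAi, at the promoter on the x axis and in the gene body on the y axis, for the 66 called promoters whose body was listed, blue for down and red for up promoters. Filled points were also called in the body (9 down, 1 up), and open points, such as St1 and cyst, lie near 0 on the y axis.

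Because BEAF sites often lie between diverging genes, listed genes were paired head to head, a minus strand gene with a plus strand gene whose start lay within 1000 bp to its right. Among listed promoters there were 152 such pairs, and 9 of them held a called gene. In 8 of the 9, one gene was called and its partner was unchanged. In 1 pair both genes were called, in opposite directions. Of all listed promoters 95.1% were unchanged and intermediate ones are left out, so a listed partner would be unchanged in most pairs whatever its neighbour did.

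That pair was Prp4 and CG7564 on 3L. The start of Prp4, at 17507015 on the minus strand, lies 380 bp from that of CG7564, at 17507395 on the plus strand. Prp4 fell by 0.88 (adjusted p = 0.00318) and CG7564 rose by 1.05 (adjusted p = 4.51e-05). Their bodies were both unchanged, at -0.08 and 0.15. They were also the only called genes with starts within 20000 bp of one another. The median distance from a called start to the nearest other called start on its chromosome was 549327 bp.

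The other 8 pairs held 1 called gene each. CG8841 fell by 1.16, while garz, the Arf exchange factor gene 534 bp away, was at 0.18, the highest value of any unchanged promoter. gammaTub37C fell by 0.84, while pigeon, 350 bp away, was at -0.09. Iswi rose by 1.003 and CG33672, at 596 bp, was at 0.05. CLIP-190 rose by 0.87 with Lrch, at 613 bp, at -0.13. CG10764 rose by 0.97 with mthl3, at 805 bp, at -0.08, and orb by 0.80 with Cdc16, of the anaphase-promoting complex, at 361 bp and -0.08. CG3744 rose by 0.80 with CG11089, at 390 bp, at 0.12. Dhdds rose by 0.68 while RpS14a, at 445 bp, was at -0.13. RpS14a has a near-identical copy, RpS14b, next to it, so its value is uncertain.

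**Figure D4:**
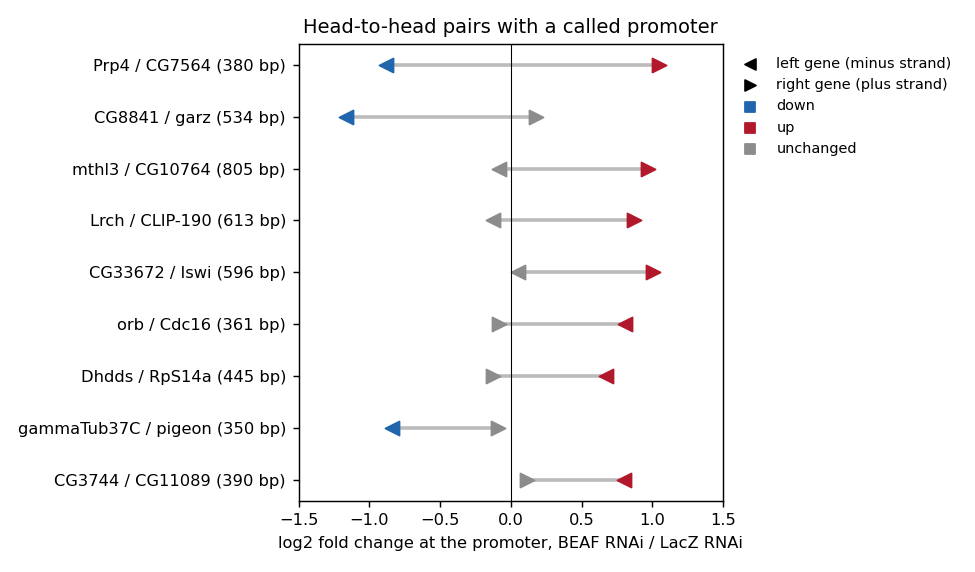
Log2 fold change at the promoter, BEAF RNAi over LacZ RNAi, of both genes of the 9 head-to-head pairs with a called promoter, with the distance between starts in brackets. Left-pointing and right-pointing triangles are the minus and plus strand genes, coloured by class, and the top pair is the one called in opposite directions.

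Counting partners listed anywhere in the series, 17 of the 47 down promoters (36.2%) and 12 of the 57 up promoters (21.1%) had a head-to-head neighbour within 1000 bp, against 700 of the 2033 unchanged (34.4%). At the promoter, that neighbour was itself listed for 3 of the 17, 7 of the 12 and 294 of the 700. The 14 down promoters whose neighbour was not listed at the promoter included CG9641 (CG3165, 272 bp), Daxx (Sec61alpha, 505 bp), mrn (CG12301, 282 bp), CG11168 (CG31120, 269 bp), CG8399 (EMC7, 616 bp), shg (cpa, 617 bp), Asap (Nup50, 274 bp) and Pgls (sbr, 313 bp). The 5 up promoters were Cdc7 (CG3226, 403 bp), E2f2 (Mpp6, 651 bp), Sans (SCCRO3, 345 bp), Asx (Cpsf160, 490 bp) and CG8929 (MED8, 476 bp). A neighbour that was not listed has no value here, so whether it moved is not known.

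The called genes lay on all chromosomes. On the X were 12 of the 47 down genes (25.5%), 11 of the 57 up genes (19.3%) and 346 of the 2033 unchanged (17.02%). The small chromosome 4 held 1 up gene, PlexB, and 17 unchanged ones. The down genes divided into 23 on the plus and 24 on the minus strand, and the up genes into 23 and 34. The median span from start to end of the listed transcript was 2134 bp for down, 3215 bp for up and 2659 bp for unchanged genes, with quartiles of 1678 and 4848, 1686 and 8204, and 1585 and 4844 bp. These ranges overlap widely. No listed transcript was shorter than 801 bp.

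Pbro RNAi was set beside BEAF RNAi at the same promoters, since the study asked how far both proteins act alike. The LacZ RNAi libraries serve both comparisons, so the values are not independent and are given side by side only. In the Pbro comparison 332 of 2510 listed promoters were down (13.2%) and 47 were up (1.87%). Of the 47 promoters down after BEAF RNAi, 26 were listed after Pbro RNAi, 3 down (11.5%) and 23 unchanged. Of the 57 up after BEAF RNAi, 30 were listed, 9 down (30.0%), 5 up (16.7%) and 16 unchanged. Of the 1232 unchanged promoters that were listed, 130 were down (10.6%) and 6 up (0.487%). Of the 23 BEAF down promoters unchanged after Pbro RNAi, 15 lay below 0 and 8 above, with a median of -0.06. Of the 16 BEAF up promoters unchanged there, 7 lay below 0 and 9 above, with a median of 0.04. The 1096 promoters unchanged in both comparisons had a median of 0.02, with 473 below 0 and 623 above. These differences were not tested.

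The leading down promoters of the BEAF comparison were mostly not listed or unchanged after Pbro RNAi. A promoter that was not listed has no value here, so whether it moved is not known. Those unchanged were listed by their adjusted p alone, so their values near 0 follow from the listing. From averaged profiles, the study reports that the promoters down after BEAF RNAi were also lower, though less so, after Pbro RNAi. CG17129 was at 0.04 and Daxx at -0.08 in the Pbro comparison, and CG9641, CG4502, St1 and fz3 were not listed at the promoter. The 3 promoters down in both were CG8399 (-1.27 after BEAF RNAi, -1.07 after Pbro RNAi), PGRP-LA (-1.17 and -2.98) and Nepl21 (-0.99 and -0.78). In the body, fz3 rose by 1.13 after Pbro RNAi (adjusted p = 0.00195).

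Among up promoters, CLIP-190 (0.87 after BEAF RNAi, 0.69 after Pbro RNAi), Thor (0.77 and 0.65), Hrb87F (0.70 and 0.74), dnt (0.62 and 0.70) and CG11870 (0.60 and 0.65) were up in both. A further 9 were up with BEAF depleted and down with Pbro depleted. CG6836 was at 0.96 in the BEAF comparison and -2.60 in the Pbro comparison, CG7720 at 0.66 and -2.51, CG8539 at 0.72 and -2.21 and Msr-110 at 0.67 and -1.71. rau was at 0.59 and -1.22, CG7378 at 0.80 and -0.97, CG31886 at 0.74 and -0.89, fbp at 0.99 and -0.84 and CG15820 at 0.82 and -0.73. Ubc6, Cdc7, Iswi and CG7564 were unchanged after Pbro RNAi, at -0.02, -0.11, 0.05 and 0.03, and cyst was not listed.

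**Figure D5:**
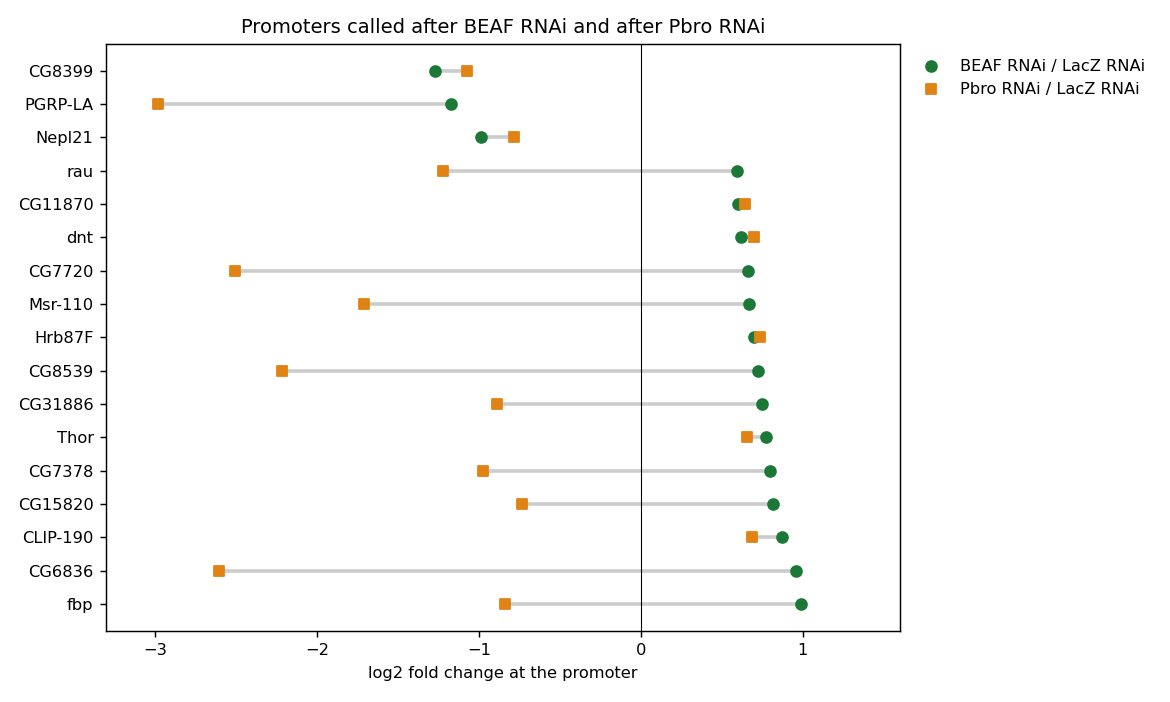
Log2 fold change at the promoter for the 17 genes called after BEAF RNAi (green circles) and after Pbro RNAi (orange squares), each over the shared LacZ RNAi libraries. The 3 genes at the top are down in both, 5 are up in both, and for the other 9 the circle lies above 0 and the square below.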

How the data were processed

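Per the study's methods, PRO-seq reads of S2 cells were aligned to dm3, nonoverlapping genes were counted, and the promoter value was taken from the short window with most reads near the start. Bowtie and DESeq2 are named in the submitters' processing notes without a version. The sources used here do not say whether the window was chosen separately for each library. If it was not, a moved pause site could appear as a changed level. The scaling of the libraries is not given in the sources used here. If they were scaled to their own reads, a change common to all genes would be removed.

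The values used are the log2 fold changes deposited by the authors. The adjusted p-values are the authors' too, from DESeq2, deposited in separate down, up and unchanged sheets for each region and knockdown. The limits of 0.05 and 0.9 were checked on each sheet. As the sheets carry comparisons only, no test was run here, and depth per library was not used. Nothing in the labels pairs the cultures, and the p-values rest on only 2 libraries a treatment. Names came from a reference table of the Release 6 assembly, which matched 47 of 47 down, 55 of 57 up and 1988 of 2033 unchanged transcripts (ab and CG11870 keep the sheets' names, and CG6322 is given by its synonym in that table, Prp4). Positions refer to dm3 and count from 1, end bases included, as judged from equal shifts at 3′ ends of both strands.

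Head-to-head pairs were searched within 1000 bp, with 500 and 2000 bp as alternatives. The search was tested on simulated data. Any called gene could be named, and the text gives the 12 of each direction whose adjusted p was lowest, those nearest the threshold, called list members and genes called in the body or after Pbro RNAi too. Of unchanged genes it names the extremes, partners in pairs and members of 3 lists. Members, lists and rules were chosen with earlier results of these data known, and wrongly assigned names were taken out of the lists after the sheets were read. Python 3 with pandas was used.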

Additional observations from a re-analysis of the deposited data

How the results depend on the processing

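With a stricter limit on the adjusted p of 0.01, 28 promoters were down and 30 up, and at 0.001 there were 16 and 14, against 47 and 57 at 0.05. Asking for at least 2-fold left 16 down and 10 up, whereas 1.5-fold left 47 and 56. At an adjusted p under 0.01 at the BEAF promoter, 5 of the up promoters were down and 3 up after Pbro RNAi, against 9 and 5. Head-to-head pairs with a called gene numbered 5 within 500 bp, against 9 within 1000 bp. The other 13 of 22 alternative values stayed within a set margin, among them the pair called in opposite directions and the median span on autosomes. For counts of promoters the margin was a factor of 1.5, and for median changes the standard deviation of the called changes. So the down median, at -0.84 and then -1.17 with an adjusted p under 0.01, was counted within it. The up median, at 0.78 and then 0.93, was as well. Counts cannot change sign, so no reversal was possible for them. No paired analysis was possible because the files give comparisons and no values per library, and for the same reason no replicate was left out in turn. The motif searches were not run, since no promoter sequence was used here. Depth was not used, so a promoter with few reads may be missing from the called set, and whether listed genes differ from unlisted ones in depth was not tested.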
